A study of Mus musculus with 17 samples.

Results

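Splenic monocytes that carried Ly6C after G-CSF treatment were compared with splenic Ly6C+ monocytes of PBS-injected mice on Affymetrix MoGene 2.0 arrays, within the set of arrays whose names begin with JS. The members are the 3 arrays titled FL.G-CSF and the 3 PBS arrays of that set, 6 of the 17 arrays of the series, taken by their titles and not by any measured value. The study asked which monocytes appear in the spleen when CD11c+ cells are removed, and G-CSF, a growth factor of granulocytes, was given to intact mice to ask whether it mobilizes similar cells. The other 11 arrays hold Ly6C+ monocytes of diphtheria toxin (DT)-injected mice (4), Ly6Cneg monocytes (3), bone marrow cMoPs, which are committed monocyte progenitors (3), and a further PBS-Ly6C+ sample whose array name begins with G32 (1).

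The 2 groups differ in more than G-CSF. PBS-Ly6C+ cells came from heterozygous or homozygous CD11c.DTR mice, in which the promoter of Itgax (CD11c) drives a transgene of the DT receptor and GFP, 48 h after an injection of PBS. G-CSF-Ly6C+ cells came, by the study's methods, from C57BL/6 mice given recombinant human G-CSF under the skin on successive days, and the vehicle-treated C57BL/6 mice that the methods mention were not analysed here. Strain, transgene, route and schedule therefore cannot be told apart from G-CSF in any difference below. The labels give spleen, C57BL/6 and an age of 8-12 weeks for both groups, and they name Flt3L beside G-CSF in the titles of the treated arrays whereas the methods name G-CSF alone. The sort gates were lineage-negative CD11b+Ly6C+ for the G-CSF cells and lineage-negative CD11b+CD115highLy6Chigh for the PBS cells, with antibodies to CD3, NK1.1 and Ly6G among those of the lineage mixture. The labels do not say which mice, single or pooled, stand behind each array, so the p-values measure only the spread between these samples.

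Classical monocytes are made in the marrow from progenitors that pass through Kit+ stages, express Ly6C and the chemokine receptor CCR2 and live for a short time in blood and spleen, where part of them turn into Ly6Cneg monocytes that patrol vessels. G-CSF acts through its receptor Csf3r and JAK-STAT signaling, drives granulocyte production and releases neutrophils and progenitors from the marrow. The spleen can also hold blood-forming progenitors of its own.

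The PBS arrays of the JS set went against their label in part, and this touches every comparison with them below. Levels are deposited log2 values, so that a step of 1 is a 2-fold difference. Kit, the stem cell factor receptor, stood at 11.03, 10.85 and 11.05 in the 3 PBS arrays and at 5.49, 4.79 and 5.73 in the G-CSF arrays, Ly6g, the neutrophil antigen that the gate was set to remove, at 10.78, 10.32 and 10.99 and 5.69, 5.76 and 5.80, and the myeloperoxidase gene Mpo at 12.23, 12.23 and 12.15 and 6.86, 6.97 and 7.49. The PBS array of the G32 set held 5.82 for Kit, 3.56 for Ly6g and 6.82 for Mpo, and so lay near the G-CSF arrays or below them. Over all genes the G-CSF arrays correlated with each other at 0.979 to 0.987, the PBS arrays with each other at 0.983 to 0.985, and the G-CSF arrays with the PBS arrays at 0.932 to 0.945, as a description over 22180 genes that share their arrays. The G32 PBS array correlated at 0.967 to 0.973 with the G-CSF arrays and at 0.919 to 0.923 with the PBS arrays of its own label. Whether these 3 PBS samples hold cells other than mature monocytes was not tested. The counts, the leading genes and most lists are therefore also given against the G32 PBS array, which is 1 sample of another array set, so that its differences cannot be told apart from a difference between sets and its spread is taken from the other groups.

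In the fit of the 6 arrays, 3955 of 22180 genes passed an adjusted p of 0.05, which is 17.8% of the genes tested, by limma with Benjamini-Hochberg adjustment over all of them. 1836 rose in G-CSF-Ly6C+ monocytes (8.28%) and 2119 fell (9.55%). Of the called genes, 1705 differed by at least 1 on the log2 scale (7.69% of all genes), 669 upward and 1036 downward, and the falls reached further than the rises. The median difference over all genes was 0.06, the 5th and 95th percentiles were -0.97 and 0.74, and the median standard error of a difference was 0.17. The 3 G-CSF arrays and the 3 PBS arrays did not overlap in 7588 genes (34.2%), among them 3949 of the called genes. In the fit of all 17 arrays, 194 genes (0.875%) passed against the G32 PBS array, of which 109 (0.491%) were higher and 85 (0.383%) lower in the G-CSF arrays.

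**Figure D1:**
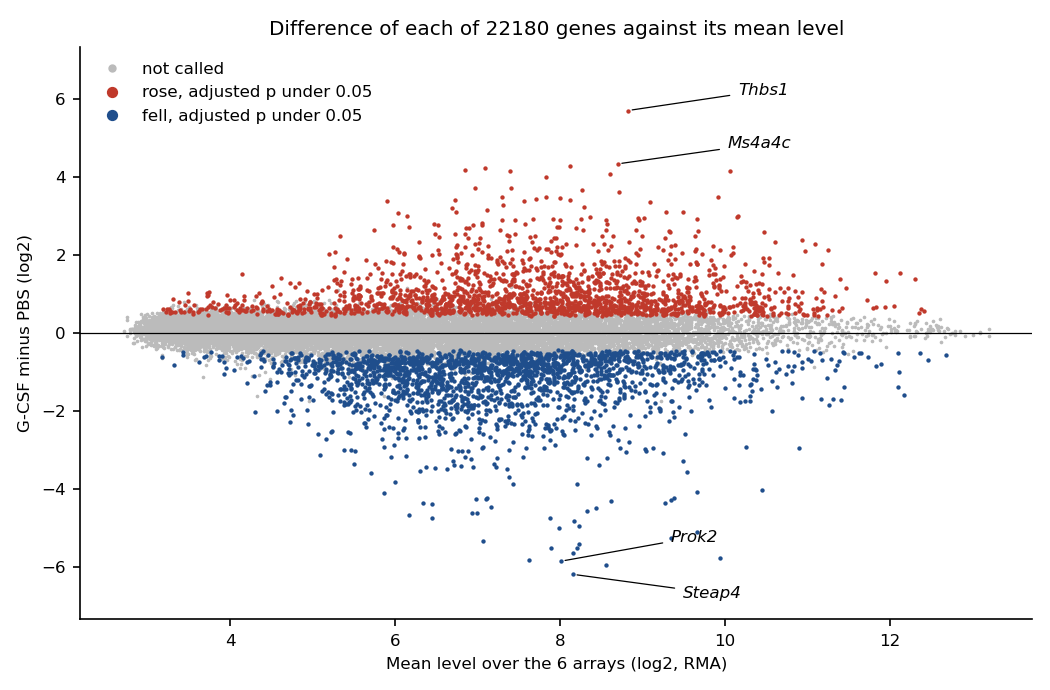
The G-CSF minus PBS difference (vertical axis, log2) of each of 22180 genes against its mean level over the 6 arrays (horizontal axis, log2), with the 1836 genes that rose in red, the 2119 that fell in blue and the others in gray. Steap4 at -6.19 and Thbs1 at 5.70 mark the ends of the range.

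The extremes of the comparison were Thbs1 and Steap4. Thbs1, which encodes the matrix glycoprotein thrombospondin-1, had levels of 11.95, 11.59 and 11.49 in the G-CSF arrays and 5.64, 6.66 and 5.61 in the PBS arrays, a rise of 5.70 on the log2 scale or 52.2-fold (SE 0.28, limma adjusted p = 1.83e-06). Every G-CSF array lay more than 4 log2 units above every PBS array, and the second PBS array was higher than the other two. Ms4a4c, a membrane protein of the MS4A family, had 10.78, 10.77 and 11.05 in the G-CSF arrays and 7.12, 6.96 and 5.51 in the PBS arrays, a rise of 4.34 (20.2-fold, SE 0.36, adjusted p = 3.92e-05). The groups did not overlap, and the third PBS array stood lowest. Steap4, a metalloreductase of iron and copper handling, had 5.46, 4.83 and 4.89 in the G-CSF arrays and 11.15, 11.23 and 11.37 in the PBS arrays, a fall of 6.19 on the log2 scale (SE 0.19, adjusted p = 2.14e-07). Prok2, also called Bv8, a secreted peptide of myeloid cells that G-CSF is known to raise in marrow, had 4.89, 5.39 and 4.98 in the G-CSF arrays and 10.91, 10.87 and 11.02 in the PBS arrays, a difference of -5.85 (SE 0.17, adjusted p = 1.88e-07). In both genes the PBS arrays lay within a narrow band and more than 5 units above the G-CSF arrays. The G-CSF levels of both lay near the array median of 5.41, and since the values carry no detection call, no fold is given for them, and the folds of other genes are those of the values as measured. The G32 PBS array held 11.98 for Thbs1, 10.53 for Ms4a4c, 5.24 for Steap4 and 5.45 for Prok2, and against it the G-CSF arrays differed by -0.31, 0.34, -0.17 and -0.36, none of which passed (adjusted p = 0.714, 0.827, 0.756 and 0.449).

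The other large rises were in genes of the cell surface, of matrix and of lipid transport. Ms4a8a (4.27) and Ms4a4a (4.23) belong to the same family as Ms4a4c. Fn1, which encodes fibronectin, had 12.24, 12.14 and 12.03 in the G-CSF arrays and 8.13, 7.86 and 7.99 in the PBS arrays and rose by 4.15 (17.7-fold, SE 0.14, adjusted p = 3.47e-07). Versican, the proteoglycan gene Vcan, had 10.70, 10.44 and 9.15 in the G-CSF arrays and 6.34, 6.58 and 6.35 in the PBS arrays, where the third G-CSF array was more than 1 unit below the others, and rose by 3.67 (SE 0.34). Hpse, the heparanase that cuts heparan sulfate chains, rose by 3.61. Ace, the angiotensin-converting enzyme, had 10.24, 10.84 and 10.82 in the G-CSF arrays and 6.44, 6.76 and 6.49 in the PBS arrays and rose by 4.07 (16.8-fold). Its lowest G-CSF array lay more than 3 units above its highest PBS array. Abca9, a lipid transporter of the ABC class, rose by 4.17, the scavenger receptor gene Msr1 by 3.99, Cd300lg of the CD300 receptor family by 3.73, Nxpe4 by 4.15, the phospholipase gene Plcb1 by 3.50 and Pld4, a nuclease of endosomes, by 3.49. Lifr, the receptor of leukemia inhibitory factor, had 9.41, 9.35 and 9.01 in the G-CSF arrays and 5.62, 5.42 and 5.60 in the PBS arrays and rose by 3.71 (13.1-fold, SE 0.16, adjusted p = 1.08e-06). Of these 15 largest rises, Lifr alone was also called against the G32 PBS array, where it stood 1.21 higher (adjusted p = 0.0274).

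The 15 largest falls held genes of granules, of progenitors and of activated neutrophils. Stfa1 (-5.94) and Stfa3 (-5.82) encode stefin A cysteine protease inhibitors, and as near-identical copies they may share probe signal. Saa3, an acute-phase serum amyloid A, had 8.14, 7.02 and 6.03 in the G-CSF arrays and 12.78, 12.88 and 12.80 in the PBS arrays, with a spread of over 2 units among the G-CSF arrays, and differed by -5.76 (SE 0.42, adjusted p = 1.74e-05). Kit fell by 5.64 on the log2 scale (49.9-fold, SE 0.23, adjusted p = 8.35e-07), Myb, a transcription factor of progenitors, by 5.52, and the mucin gene Muc13 by 5.51. Ms4a3, a gene of granulocyte-monocyte progenitors, differed by -5.40, the adhesion receptor gene Adgrl4 by -5.33, cathepsin G (Ctsg) by -5.24 and Mpo by -5.09. Il1f9, which encodes the cytokine IL-36 gamma, differed by -5.0, Ly6g by -4.95 and Chil1, a chitinase-like protein of specific granules, by -4.81. All 15 were at 9.67 or more in every PBS array and at 8.14 or less in every G-CSF array. Against the G32 PBS array the order turned for 2 of them with a call, since Il1f9 was 1.30 and Ly6g 2.19 higher in the G-CSF arrays (adjusted p = 0.0274 and 0.0134).

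**Figure D2:**
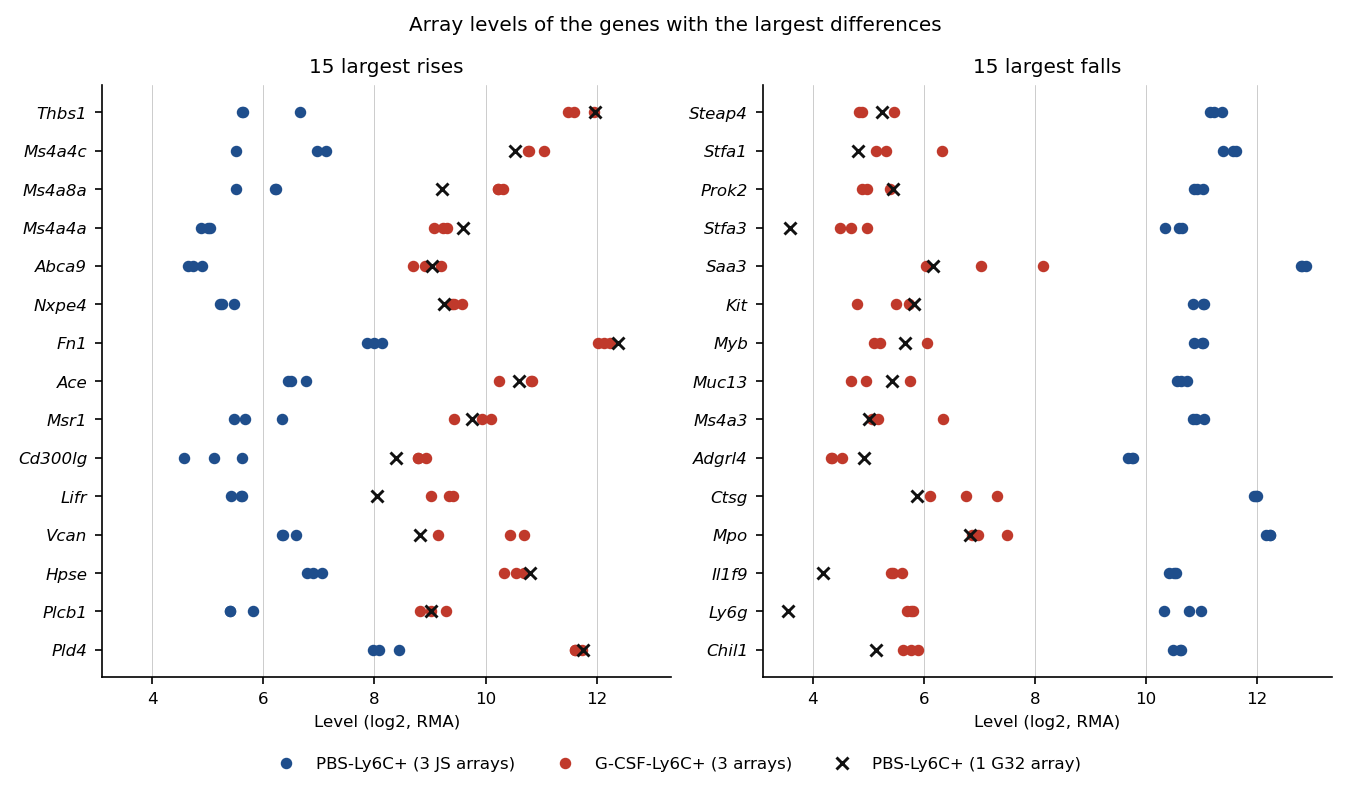
Levels (horizontal axis, log2) of the 15 genes with the largest rises (left) and the largest falls (right), with each of the 3 G-CSF arrays in red, each of the 3 PBS arrays of the JS set in blue and the G32 PBS array as a black cross. The genes were taken from called genes without overlap, so the red and blue points are apart in every row by choice. Of all genes 34.2% did not overlap. Most crosses lie with the red points.

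Of the genes of the sort markers, Itgam, Csf1r and Ly6c2 lay above the array median in every array, at unequal levels, and Ly6c1 did not. Itgam, which encodes CD11b, had 11.41, 11.33 and 11.21 in the G-CSF arrays and 10.95, 10.88 and 10.96 in the PBS arrays and did not pass (0.39, adjusted p = 0.0845, called in 2 of the alternatives). Csf1r, which encodes CD115, the receptor of M-CSF, had 11.28, 11.46 and 11.54 in the G-CSF arrays and 9.52, 9.50 and 9.47 in the PBS arrays and was higher in the G-CSF arrays by 1.93 (SE 0.14, adjusted p = 1.59e-05), although CD115 was part of the gate of the PBS cells only. Ly6c2, which encodes the Ly6C antigen, had 12.89, 12.85 and 12.91 in the G-CSF arrays and 11.38, 11.33 and 11.34 in the PBS arrays and rose by 1.53 (2.9-fold, adjusted p = 3.88e-05). Ly6c1, whose sequence is close to that of Ly6c2, had 5.59, 4.17 and 4.61 in the G-CSF arrays and 3.97, 3.78 and 4.27 in the PBS arrays and did not pass. Against the G32 PBS array the differences were -0.09 for Csf1r and -0.07 for Ly6c2, and neither passed.

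Among 22 genes of G-CSF and cytokine signaling, 3 rose and 2 fell, a share of 22.7% against 17.8% of all genes. Csf3r, the G-CSF receptor itself, had 10.17, 10.11 and 10 in the G-CSF arrays and 11.79, 11.81 and 11.69 in the PBS arrays. The groups did not overlap and the G-CSF arrays were lower by 3.19-fold (-1.67, SE 0.13, adjusted p = 2.94e-05). Socs3, a feedback inhibitor of the receptor, fell by 0.57 on the log2 scale (adjusted p = 0.0403), a call that was lost when any of 5 of the 6 arrays was left out and also in 3 other alternatives. Lifr rose as above, and with it Il6st (gp130, the signaling chain that it shares with the IL-6 receptor), at 10.06, 10.06 and 10.22 in the G-CSF arrays and 8.28, 8.91 and 8.85 in the PBS arrays (1.43, adjusted p = 0.000531), and Il6ra, the IL-6 receptor (0.89, adjusted p = 0.00254). The kinases and transcription factors of the pathway gave small values that did not pass, with -0.08 for Jak1, -0.21 for Jak2, 0.17 for Stat3, -0.04 for Stat5a and 0.45 for Cebpb. The median of the list was 0.10, close to the 0.06 of all genes. Of 14 receptors of myeloid growth factors, 5 rose (35.7%, against 8.28% of all genes) and 3 fell (21.4%, against 9.55%). Met, the receptor of hepatocyte growth factor, led the rises, at 8.75, 9.16 and 9.11 in the G-CSF arrays and 7.20, 6.36 and 7.13 in the PBS arrays. Its rise was 2.11 (limma adjusted p = 0.000197), and Csf1r and Csf2ra (0.53) followed. Kit, Csf3r and the IL-4 receptor gene Il4ra (-1.08) fell. Flt3, the receptor of Flt3L, had 6.61, 6.46 and 7.37 in the G-CSF arrays and 7.60, 7.29 and 7.29 in the PBS arrays and did not pass (-0.58, adjusted p = 0.134), with the third G-CSF array inside the range of the PBS arrays.

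Markers of classical Ly6C+ monocytes were higher in the G-CSF arrays. Of 19 measured markers 13 rose (68.4%, against 8.28% of all genes) and 0 fell, with a median difference of 1.27. Ccr2, the receptor that takes monocytes out of the marrow, had 11.53, 11.46 and 11.49 in the G-CSF arrays and 9.56, 9.61 and 9.56 in the PBS arrays. The groups were narrow and apart, by 1.92 (3.79-fold, adjusted p = 1.07e-05). After Fn1 and Vcan the largest rise was that of Clec4a1, a C-type lectin receptor (3.01). Itgam, Cd14 (0.48), Plac8 (0.31), Emb (0.23), Hp (-0.03) and Ly6c1 (0.78) did not pass. The mean level of the list was 11.02 to 11.23 in the G-CSF arrays, 9.58 to 9.64 in the PBS arrays and 11.04 in the G32 PBS array, against which 0 members were called.

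Markers of Ly6Cneg monocytes were higher as well, with 13 of 21 risen (61.9%, against 8.28% of all genes), 1 fallen and a median of 1.34. Besides Ace, Fabp4, a carrier of fatty acids, had 7.54, 7.90 and 7.34 in the G-CSF arrays and 4.23, 5.07 and 3.30 in the PBS arrays, with a wide spread among the PBS arrays, and rose by 3.39 (SE 0.37, adjusted p = 0.000191). Adgre4, an adhesion receptor of mouse monocytes, rose by 3.37. Nr4a1, the nuclear receptor on which Ly6Cneg monocytes depend, had 12.21, 12.20 and 12.26 in the G-CSF arrays and 9.99, 9.87 and 10 in the PBS arrays. Its spread was under 0.2 in each group, and it rose by 2.27 (4.83-fold, adjusted p = 4.55e-06). Itgax, which encodes CD11c and whose promoter drives the transgene of the PBS mice, had 7.04, 7.23 and 7.46 in the G-CSF arrays and 7.97, 7.67 and 7.75 in the PBS arrays and differed by -0.56 (adjusted p = 0.0409), but it lost the call when any of 5 arrays was left out and in 4 other alternatives, and against the G32 PBS array it was 1.46 higher (adjusted p = 0.0274). The mean level of the Ly6Cneg list was 9.03 to 9.23 in the G-CSF arrays and 7.70 to 7.87 in the PBS arrays, and it was 9.46 to 10.15 in the Ly6Cneg arrays themselves. In the G32 PBS array it was 8.74, with a median difference of 0.19 and 1 member called.

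Genes of stem and progenitor cells were lower in the G-CSF arrays in 19 of 24 cases (79.2%, against 9.55% of all genes that fell), with a median of -1.78. Kit, Myb and Muc13 led them, and Cd34, a surface marker of progenitors, had 5.20, 5.60 and 5.70 in the G-CSF arrays and 10.08, 10.36 and 10.30 in the PBS arrays (26.8-fold lower, adjusted p = 4.26e-07). The single rise was Cd93, a receptor that monocytes share with early progenitors (1.11). Runx1 (0.43), Lmo2 (-0.37), Flt3 (-0.58) and Tal1 (-0.60) did not pass. The mean level of the list was 5.64 to 5.77 in the G-CSF arrays, 7.95 to 8.06 in the PBS arrays, 7.41 to 7.62 in the cMoP arrays and 5.84 in the G32 PBS array. In bulk samples fewer cells of a type and less RNA per cell cannot be told apart, which holds for this list and for all cell type markers.

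Genes of primary granules, which neutrophil and monocyte precursors fill with proteases at the promyelocyte stage, fell in 10 of 13 cases (76.9%, against 9.55% of all genes), with a median of -2.46. After Ms4a3, Ctsg and Mpo came the neighboring protease genes Elane (neutrophil elastase), at 7.57, 6.77 and 7.46 in the G-CSF arrays and 11.58, 11.55 and 11.34 in the PBS arrays, and Prtn3 (proteinase 3), at 7.63, 8.06 and 7.30 in the G-CSF arrays and 10.70, 10.59 and 10.51 in the PBS arrays, which were chosen after their values were seen. They were 18.7-fold and 7.66-fold lower in the G-CSF arrays (adjusted p = 2.21e-06 and 1.06e-05). Ctsc, the cathepsin that activates these proteases, rose by 1.54, and Hgf (0.16) and Gstm1 (0.40) did not pass. Averaged over the list, levels were 7.55 to 7.75 in the G-CSF arrays, 10.03 to 10.06 in the PBS arrays, 10.46 to 10.47 in the cMoP arrays and 7.18 in the G32 PBS array. Against that array the median turned to 0.48, with 1 member called higher in the G-CSF arrays and 0 lower.

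The 120 bases before the start sites of Prtn3 and Elane are shown because these neighbors on chromosome 10 fell together and hold the same pair of letter matches, GAGGAAGT (a motif of PU.1) and CAACGG (a motif of MYB), in the same order and on the same strand, with no overlap between them. They are RefSeq sequences of build GRCm38.p6, 5′ to 3′ on the strand of the gene, with the matches in capitals. Prtn3 lies on the plus strand with the window at chr10:79879547-79879666, and Elane on the plus strand at chr10:79886192-79886311.
Prtn3: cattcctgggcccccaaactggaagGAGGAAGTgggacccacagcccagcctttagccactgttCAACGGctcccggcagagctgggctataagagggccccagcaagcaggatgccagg
Elane: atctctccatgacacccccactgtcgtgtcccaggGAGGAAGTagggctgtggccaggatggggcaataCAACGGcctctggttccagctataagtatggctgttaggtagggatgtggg
Over the 250 bases before the start, on both strands, GAGGAAGT was present in 4 of 11 primary granule genes with a promoter in the RefSeq table and in 2.44% of 32851 promoters, and CAACGG in 2 of 11 and in 4.05%. These letters were chosen after the sequences were seen, and a match is a description of the letters only.

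Genes of secondary and tertiary granules and of neutrophils gave the same direction. Of 22 granule genes 16 fell (72.7%) and 3 rose, and of 20 neutrophil markers 19 fell (95%), Mrgpra2b (-0.28) being the exception that did not pass. Among all genes 9.55% fell and 8.28% rose. Mmp9, the gelatinase of tertiary granules, had 7.15, 7.12 and 7.31 in the G-CSF arrays and 11.47, 11.44 and 11.55 in the PBS arrays (19.6-fold lower, adjusted p = 2.26e-07). Cxcr2, the chemokine receptor that releases neutrophils from marrow, had 7.42, 7.64 and 7.82 in the G-CSF arrays and 11.66, 11.72 and 11.69 in the PBS arrays (16.7-fold lower, adjusted p = 4.55e-07). Neither gene overlapped between groups, and the G32 PBS array was lower still, at 6.22 and 5.61. Retnlg, a resistin-like gene of neutrophils, fell by 3.02 on the log2 scale, and Mrgpra2a, a receptor gene of neutrophils, by 4.35. Both genes turned in sign against the G32 PBS array, where the median of the granule list was 0.37. The 3 that rose were Cybb, the catalytic chain of the phagocyte NADPH oxidase (2.35), the lysozyme gene Lyz2 (0.62) and Fcnb, a ficolin (0.59). Averaged over the neutrophil list, levels were 7.78 to 7.90 in the G-CSF arrays, 9.79 to 9.81 in the PBS arrays and 7.0 in the G32 PBS array. Against that array the list pointed the other way, with 2 members called higher in the G-CSF arrays, 0 called lower and a median of 0.48.

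Steap4, the largest fall, is shown beside the granule genes Ltf (lactoferrin, -2.03) and Mmp8 (the neutrophil collagenase, -0.96) because all of them hold the letters TTGCNNAA, a motif of the C/EBP factors that direct granule genes, close to the start. In capitals is the match, which in Ltf reads TTNNGCAA because it lies on the other strand, in RefSeq sequences of build GRCm38.p6 on the strand of the gene, which is the plus strand for all of them, with windows at chr5:7960352-7960471, chr9:111019172-111019291 and chr9:7558309-7558428.
Steap4: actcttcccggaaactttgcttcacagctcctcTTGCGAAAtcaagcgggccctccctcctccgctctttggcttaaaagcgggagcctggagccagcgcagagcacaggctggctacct
Ltf: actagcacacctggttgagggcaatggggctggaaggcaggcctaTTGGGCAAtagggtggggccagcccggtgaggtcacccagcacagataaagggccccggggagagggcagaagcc
Mmp8: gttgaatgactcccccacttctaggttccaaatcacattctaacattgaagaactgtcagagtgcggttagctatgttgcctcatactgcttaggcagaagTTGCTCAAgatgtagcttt
Within 250 bases before the start and on both strands, TTGCNNAA was found in 9 of 19 secondary and tertiary granule genes with a promoter in the table, in 0 of 11 primary granule genes and in 9.56% of all promoters. Of the 9 granule genes with the letters 8 were called in either direction, and of the 10 without them 10 were. Nearly all were called, so these counts cannot show whether the letters went with the calls.

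Markers of T cells, NK cells, basophils and eosinophils were also lower in the G-CSF arrays. Of 12 T cell markers 8 fell (66.7%, against 9.55% of all genes) and 0 rose, among them Cd3e, a chain of the T cell receptor complex, at 4.73, 4.67 and 4.85 in the G-CSF arrays and 7.56, 7.12 and 7.24 in the PBS arrays, and Cd3g (-2.71). Of 11 NK cell markers 7 fell (63.6%), led by Nkg7, a gene of cytotoxic granules, at 6.53, 6.79 and 6.06 in the G-CSF arrays and 10.78, 10.77 and 10.76 in the PBS arrays, whose mean in the cMoP arrays was 11.60. Basophil and mast cell markers fell in 9 of 12 cases (75%), among them Cpa3, the mast cell carboxypeptidase, at 3.90, 4.65 and 4.23 in the G-CSF arrays and 8.51, 8.51 and 8.88 in the PBS arrays. Eosinophil markers fell in 6 of 7 cases (85.7%), with Prg2, the major basic protein, at 4.67, 4.54 and 4.69 in the G-CSF arrays and 8.39, 9.77 and 9.55 in the PBS arrays. In each of these genes all 3 PBS arrays were above all 3 G-CSF arrays. B cell markers fell in 2 of 11 cases, Ms4a1 (-1.29) and Cd79a (-1.03), erythroid markers in 3 of 11, led by the carbonic anhydrase gene Car2 (-4.66), and platelet markers in 2 of 9, led by platelet factor 4 (Pf4, -2.96). These shares of 18.2%, 27.3% and 22.2% rest on 2 or 3 genes each. They lie above the 9.55% of all genes that fell and nearer to the 17.8% called in either direction. No member of the T cell, NK cell, basophil, eosinophil, B cell, erythroid or platelet list was called against the G32 PBS array, and the medians of the first 4 were -0.23, 0.11, 0.01 and -0.04. Mean levels of the lists in the G-CSF and PBS arrays were 5.09 to 5.11 and 6.58 to 6.68 for T cells, 5.40 to 5.64 and 6.48 to 6.75 for NK cells, 4.69 to 4.86 and 6.58 to 6.65 for basophils and mast cells and 4.57 to 4.71 and 6.44 to 6.91 for eosinophils. The part of such cells in the differences was not tested.

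**Figure D3:**
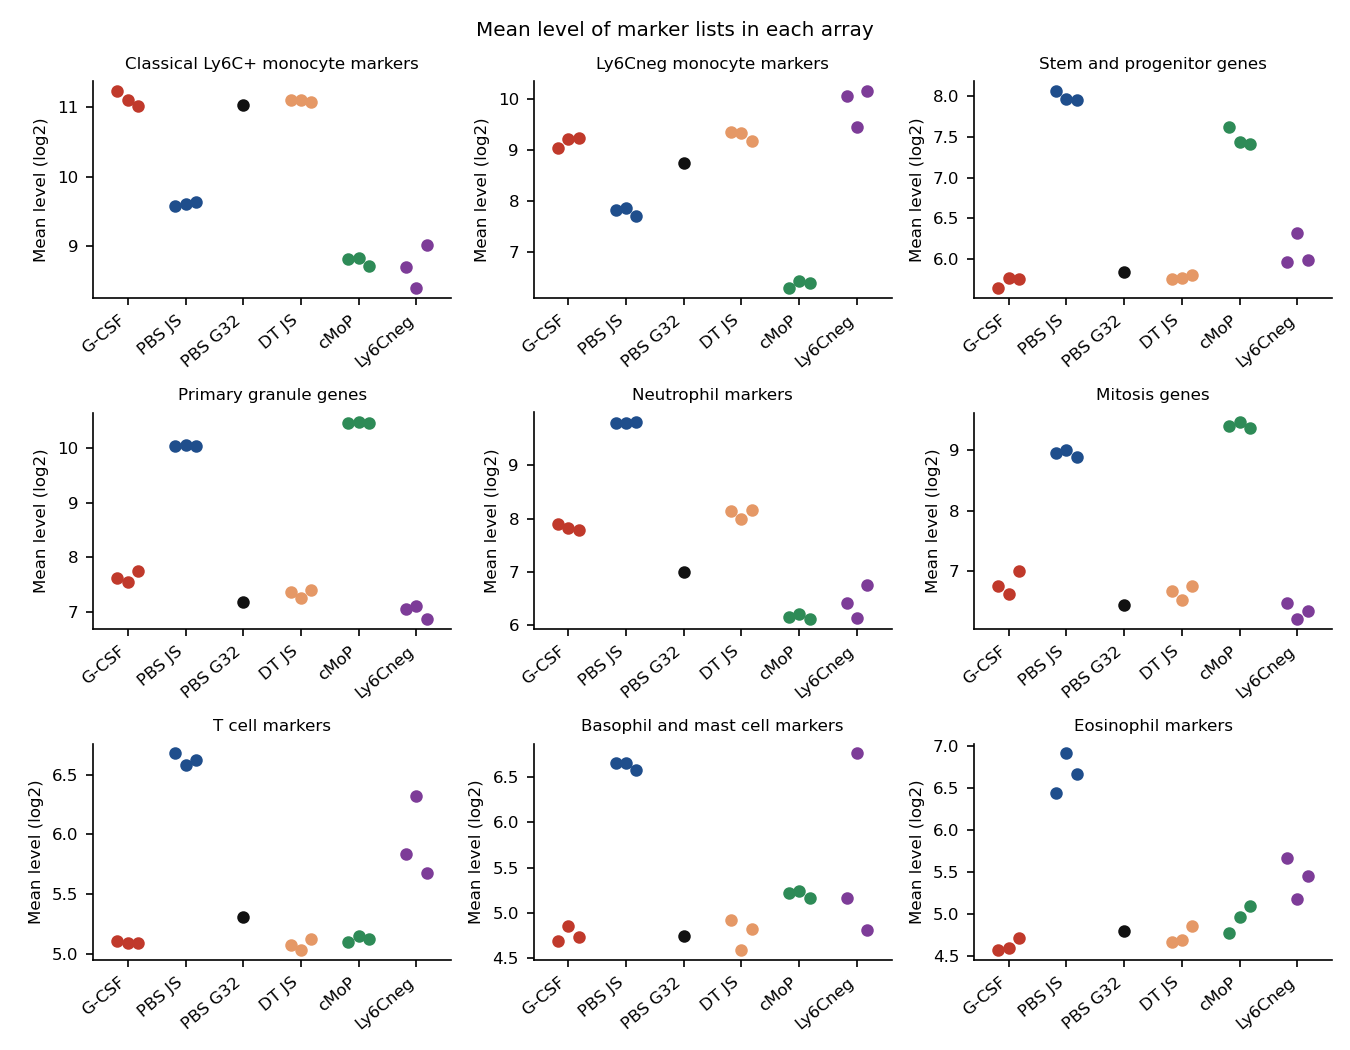
Mean level (vertical axis, log2) over the measured members of 9 gene lists in each array of 6 groups, which are G-CSF-Ly6C+, PBS-Ly6C+ of the JS set, the G32 PBS-Ly6C+ array, DT-Ly6C+ of the JS set, cMoPs and Ly6Cneg monocytes. The 3 PBS arrays of the JS set stand above the other Ly6C+ arrays in the progenitor, granule, neutrophil, mitosis, T cell, basophil and eosinophil lists and below them in the monocyte lists.

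Dendritic cell and macrophage markers were mixed, with 43.8% and 53.3% called, against 17.8% of all genes. Of 16 dendritic cell markers 4 rose, with the transcription factor genes Irf4 (7.13, 7.17 and 7.51 in the G-CSF arrays and 5.74, 5.28 and 4.93 in the PBS arrays, a rise of 1.95) and Irf8 (1.52) and the lectin gene Clec10a (1.57) at their head, and 3 fell, which were Cd7 (-2.20), Cd24a (-1.85) and Itgax. Zbtb46, a factor of conventional dendritic cells, gave 0.14 and Siglech, a receptor of plasmacytoid cells, -0.63, and neither passed. Of 15 tissue macrophage markers 6 fell and 2 rose. The iron exporter gene Slc40a1 (-2.37), Cd5l (-1.88) and Vcam1 (-1.40) fell, and Adgre1, which encodes F4/80, rose by 1.67. Slc40a1, Cd5l and Vcam1 turned in sign against the G32 PBS array. The list medians against it were 0.7 for macrophage and 0.09 for dendritic cell markers. The complement genes C1qa (-0.31), C1qb (0.54) and C1qc (-0.20), which splenic macrophages make, did not pass.

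**Figure D4:**
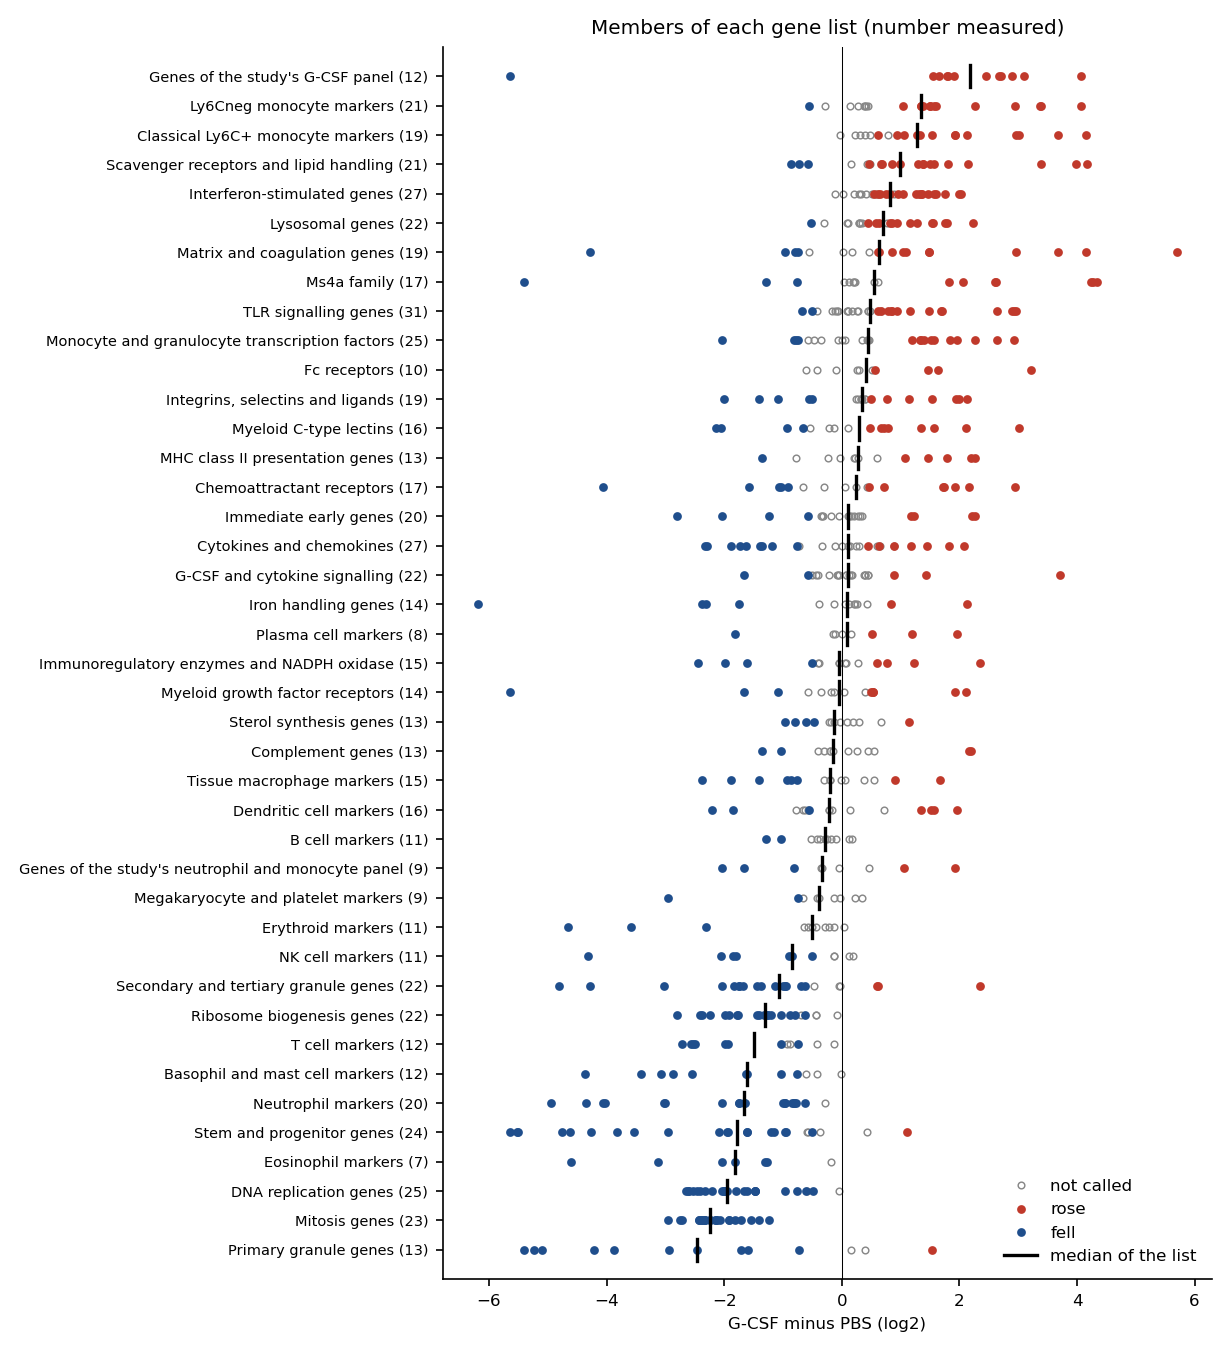
G-CSF minus PBS differences (horizontal axis, log2) of the members of 41 gene lists, ordered by their median (black bar), with called rises in red, called falls in blue and members that did not pass as open gray circles. All 23 mitosis genes lie below 0, and none of the classical monocyte markers was called below 0.

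Proliferation genes fell as a block. All 23 measured mitosis genes fell (median -2.24), as did 23 of 25 genes of DNA replication (median -1.95), against 9.55% of all genes. Cdk1, the kinase that starts mitosis, had 5.99, 5.96 and 6.38 in the G-CSF arrays and 9.09, 9.24 and 8.84 in the PBS arrays and was 7.7-fold lower (adjusted p = 5.16e-06). Top2a, the topoisomerase that untangles replicated DNA, had 7.33, 6.90 and 7.76 in the G-CSF arrays and 10.12, 10 and 10.13 in the PBS arrays and was 6.74-fold lower (adjusted p = 2.19e-05). Ttk, the spindle checkpoint kinase, differed by -2.71, and of the replication genes Uhrf1, which keeps DNA methylation through replication, differed by -2.65, the ribonucleotide reductase gene Rrm1 by -2.61 and the helicase gene Mcm6 by -2.60. In each of these genes every PBS array lay more than 2 units above every G-CSF array. Fen1 (-0.59) and E2f1 (-0.05) were the replication genes that did not pass. Genes of ribosome biogenesis moved alike, with 18 of 22 fallen and a median of -1.30, and Myc, the factor that drives many of them, had 7.21, 7.62 and 7.49 in the G-CSF arrays and 10.30, 10.23 and 10.18 in the PBS arrays (6.95-fold lower, adjusted p = 3.12e-06). For the mitosis list the mean level was 6.62 to 7.01 in the G-CSF arrays, 8.88 to 9.0 in the PBS arrays, 9.37 to 9.46 in the cMoP arrays and 6.44 in the G32 PBS array, against which 0 of its members were called lower and 0 higher. How far cycling precursors in the PBS samples set this difference was not tested.

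Promoters of mitosis genes are known for a CHR element near the start and CCAAT boxes before it, and both can be read in Cdk1, Top2a and Cdc20, an activator of the anaphase-promoting complex that fell by 2.39 on the log2 scale (chosen after its values were seen). In capitals are TTTGAA (CHR) and CCAAT or the same letters on the other strand, TTCAAA and ATTGG, which do not overlap here. The windows, from RefSeq in build GRCm38.p6, lie on the minus strand at chr10:69352913-69353032, chr11:99024190-99024309 and chr4:118437344-118437463.
Cdk1: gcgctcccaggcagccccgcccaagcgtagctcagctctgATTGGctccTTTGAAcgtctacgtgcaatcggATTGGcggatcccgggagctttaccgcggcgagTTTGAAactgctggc
Top2a: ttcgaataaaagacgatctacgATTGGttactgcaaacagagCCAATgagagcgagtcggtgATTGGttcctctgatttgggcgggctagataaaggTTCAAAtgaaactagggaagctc
Cdc20: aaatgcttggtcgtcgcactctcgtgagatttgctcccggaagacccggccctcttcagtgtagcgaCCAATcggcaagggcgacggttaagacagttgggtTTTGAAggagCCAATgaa
In the 250 bases before the start TTTGAA was found in 8 of 19 mitosis genes with a promoter in the table and in 16.0% of all promoters, and CCAAT in 15 of 19 and in 33.8%. All 19 fell, with and without the letters.

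Transcription factors of monocytes and granulocytes moved in both directions. Of 25 factors 11 rose (44%, against 8.28% of all genes) and 4 fell, and against the G32 PBS array none was called and the median was -0.06. Klf4, which monocytes need to form, had 9.69, 9.48 and 9.97 in the G-CSF arrays and 6.64, 7.03 and 6.67 in the PBS arrays and was 7.63-fold higher (adjusted p = 6.28e-06), and Nr4a2, a nuclear receptor close to Nr4a1, had 9.46, 9.50 and 9.82 in the G-CSF arrays and 6.83, 6.79 and 7.23 in the PBS arrays (6.24-fold higher, adjusted p = 1.02e-05). Irf8, which favors monocytes over granulocytes, had 10.65, 10.54 and 10.64 in the G-CSF arrays and 8.85, 9.28 and 9.13 in the PBS arrays (2.87-fold higher, adjusted p = 0.000115). The falls were Egr1, at 8.24, 8.63 and 8.19 in the G-CSF arrays and 10.42, 10.28 and 10.45 in the PBS arrays, Gfi1 (-0.82) and Cebpe (-0.78), both factors of granulocytes, and Cebpd (-0.74). Gfi1 lost its call when any of 3 arrays was left out and Cebpe when any of 4 was, and both lost it with all 4 PBS arrays in the fit. Spi1, which encodes PU.1, gave 0.05, Cebpa 0.46 and Cebpb 0.45, and none of them passed. Immediate early genes, which respond to stimulation and to cell handling, had 4 rises and 4 falls among 20 and a median of 0.11. The share called was 40%, against 17.8% of all genes. Atf3 (2.21) and Fos (1.22) were up and Myc, Egr1 and Egr3 (-1.24) down.

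Tlr7 and the CD180 complex led the 31 genes of Toll-like receptor (TLR) signaling, of which 14 rose and 2 fell (median 0.48). The share that rose was 45.2%, against 8.28% of all genes, and against the G32 PBS array 0 members were called and the median was 0.11. Tlr7, the endosomal receptor of single-stranded RNA, had 10.54, 10.40 and 10.57 in the G-CSF arrays and 7.71, 7.37 and 7.54 in the PBS arrays. The gap between the groups was wider than 2 units, and the rise was 2.96 (7.79-fold, SE 0.15, adjusted p = 2.09e-06). Cd180, a surface relative of TLR4, had 10.44, 10.43 and 10.33 in the G-CSF arrays and 7.47, 7.35 and 7.72 in the PBS arrays (7.4-fold higher), and its partner Ly86 (MD-1) had 11.03, 11.20 and 11.13 in the G-CSF arrays and 8.27, 8.12 and 8.19 in the PBS arrays (7.6-fold higher). Of the TLR genes, Tlr4, the receptor of bacterial lipopolysaccharide, fell by 0.67 on the log2 scale (adjusted p = 0.0159), and so did the inhibitor gene Tollip (-0.50). The TLR4 cofactors Cd14 (0.48) and Ly96 (0.66), Tlr2 (0.45) and the adaptor gene Myd88 (0.17) did not pass.

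Interferon-stimulated genes rose in 17 of 27 cases (63%, against 8.28% of all genes) and fell in 0, with a median of 0.82. The median difference of the list from the G32 PBS array was 0.06. The antiviral GTPase gene Mx1 had 6.88, 6.86 and 7.62 in the G-CSF arrays and 5.19, 5.17 and 4.95 in the PBS arrays (4.05-fold higher, adjusted p = 0.000156), with the third G-CSF array above the others, and its relative Mx2 had 7.47, 7.44 and 7.41 in the G-CSF arrays and 5.81, 5.05 and 5.47 in the PBS arrays (3.99-fold higher, adjusted p = 9.11e-05). Zbp1, a sensor of Z-form nucleic acid, rose by 1.75. Several classical members did not pass, with 0.02 for Ifit1, 0.58 for Rsad2, 0.51 for Ifit3 and 0.88 for Cxcl10. The mean level of the list was 8.54 to 9.0 in the G-CSF arrays, 7.73 to 7.88 in the PBS arrays, 8.64 in the G32 PBS array and 9.06 to 9.08 in the DT arrays.

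The interferon-stimulated response element, searched as GAAA, any 2 bases and GAAA again, is shown in a pair of genes that rose, the guanylate-binding protein gene Gbp3 (0.95, adjusted p = 0.00591) and the Schlafen gene Slfn8 (1.32, adjusted p = 0.000746), and in Ifit1, which holds it at 2 places and had 7.46, 7.35 and 7.91 in the G-CSF arrays and 7.46, 7.34 and 7.85 in the PBS arrays, with an overlap of the groups. These 3 were chosen after their values were seen. The element reads TTTC, any 2 bases and TTTC where it lies on the other strand, as it does in all of them, and overlapping copies run together in Gbp3. The RefSeq windows (GRCm38.p6) are at chr3:142559924-142560043 on the plus strand, chr11:83020811-83020930 on the minus strand and chr19:34640769-34640888 on the plus strand, and for Gbp3 and Slfn8 the start site whose window holds the letters nearest to it is given.
Gbp3: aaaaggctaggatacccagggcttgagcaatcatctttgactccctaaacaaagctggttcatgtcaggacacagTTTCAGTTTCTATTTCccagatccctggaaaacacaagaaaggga
Slfn8: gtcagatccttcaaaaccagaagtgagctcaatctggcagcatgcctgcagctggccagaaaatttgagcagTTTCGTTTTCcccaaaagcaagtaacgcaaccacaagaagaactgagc
Ifit1: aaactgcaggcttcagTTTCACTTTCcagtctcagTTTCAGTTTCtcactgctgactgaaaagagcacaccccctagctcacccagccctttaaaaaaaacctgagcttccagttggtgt
The letters were present in the 250 bases before the start of 12 of 20 interferon-stimulated genes with a promoter in the table and of 2.98% of all promoters. Of the 12 genes with them 7 were called, and of the 8 without them 4.

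Cytokine genes moved in both directions, with 7 rises and 9 falls among 27, a share called of 59.3% against 17.8% of all genes. Tnf had 8.42, 8.65 and 8.42 in the G-CSF arrays and 10.36, 10.60 and 10.22 in the PBS arrays. Every PBS array was at least 1 unit above every G-CSF array, and the G-CSF arrays were 3.71-fold lower (-1.89, SE 0.16, adjusted p = 3.51e-05). Ccl5, a chemokine of T and NK cells and of Ly6Cneg monocytes, differed by -2.33, and Il12a, a chain of IL-12, by -2.30. In the other direction Il6 rose by 2.08, at 6.32, 6.10 and 6.50 in the G-CSF arrays and 4.33, 4.08 and 4.29 in the PBS arrays, the chemokine gene Ccl9 by 1.82 and Il18 by 1.45. Against the G32 PBS array Tnf differed by 0.07 (adjusted p = 0.929). Chemoattractant receptors had 7 rises and 5 falls among 17 (70.6% called). Cx3cr1, the fractalkine receptor of Ly6Cneg monocytes, rose by 2.95, C3ar1, the receptor of the complement fragment C3a, by 2.17 and Ccr2 as above, whereas Cxcr2, Ccr1 (-1.57) and Fpr2, a formyl peptide receptor (-1.07), fell. Cmklr1, the chemerin receptor, had 7.86, 7.87 and 7.81 in the G-CSF arrays and 6.19, 6.02 and 6.09 in the PBS arrays, rose by 1.74 and was also higher than in the G32 PBS array, by 1.47 (adjusted p = 0.0134), a gene chosen after its values were seen.

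The MS4A family, tetraspan membrane proteins that lie in a cluster on chromosome 19, held members at both ends of the range. Of 17 measured members 7 rose, 3 fell and 7 did not pass (58.8% called, against 17.8% of all genes), and their differences ran from -5.40 to 4.34. Ms4a4c, Ms4a8a at 10.32, 10.22 and 10.22 in the G-CSF arrays and 5.51, 6.23 and 6.21 in the PBS arrays and Ms4a4a at 9.24, 9.30 and 9.07 in the G-CSF arrays and 5.01, 4.87 and 5.04 in the PBS arrays led the rises. The falls were Ms4a3, the B cell gene Ms4a1 (CD20) and Ms4a2, the beta chain of the mast cell IgE receptor (-0.76). Of 10 Fc receptor genes 4 rose (40%, against 8.28% of all genes) and 0 fell. Fcgr1, which encodes CD64, the high-affinity IgG receptor by which the study told its variant monocytes apart, had 9.74, 9.96 and 10.01 in the G-CSF arrays and 6.86, 6.48 and 6.71 in the PBS arrays. The groups were more than 2 units apart, and the rise was 3.22 (9.32-fold, SE 0.16, adjusted p = 1.84e-06). The G32 PBS array held 9.80, within the range of the G-CSF arrays. The inhibitory receptor gene Fcgr2b rose by 1.63 and Fcgrt, the neonatal Fc receptor, by 1.46, while Fcgr3 (0.30), Fcgr4 (-0.43) and Fcer1g (0.26) did not pass. C-type lectins also moved in both directions. Clec4a1, Clec4a3 (2.11) and Clec10a rose, and Clec4d (-2.14), Clec5a (-2.06) and Mrc1, the mannose receptor (-0.94), fell.

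Genes of scavenging and lipid handling were higher in 15 of 21 cases (71.4%, against 8.28% of all genes), with a median of 0.99. No member of this list, of the lysosomal list or of the MHC class II list was called against the G32 PBS array, and their medians were 0.06, 0.02 and 0.02. Msr1 had 9.94, 10.09 and 9.43 in the G-CSF arrays and 5.48, 6.34 and 5.67 in the PBS arrays, and Abca9 had 8.91, 8.70 and 9.20 in the G-CSF arrays and 4.73, 4.65 and 4.90 in the PBS arrays, and neither overlapped between the groups. The falls were Marco, a scavenger receptor of macrophages (-0.86), the cholesterol exporter gene Abca1 (-0.73) and Fabp5 (-0.57). Lysosomal genes rose in 13 of 22 cases (59.1%), led by the cathepsin genes Ctsh, at 10.55, 10.42 and 10.40 in the G-CSF arrays and 8.41, 8.0 and 8.26 in the PBS arrays, and Ctss (1.78) and by the legumain gene Lgmn (1.76), and Ctsd fell by 0.52. Of 13 genes of antigen presentation on MHC class II 5 rose (38.5%), with the costimulatory genes Cd80 (2.27) and Cd40 (2.19) first, but H2-Ab1 (0.20), H2-Aa (0.23), H2-Eb1 (-0.23) and their regulator Ciita (0.59) did not pass. Matrix and coagulation genes rose in 11 of 19 cases (57.9%) and fell in 4, among them Mmp9, Mmp8 and Timp2 (-0.80). Of 19 integrins, selectins and their ligands 63.2% were called, against 17.8% of all genes, with 7 rises, led by Itgb7 (2.12), Itgb5 (1.99) and Itga1 (1.94), and 5 falls, led by Itga6 (-2.0), an integrin of progenitors. Of 14 genes of iron handling (42.9% called) Steap4, Slc40a1, the lipocalin gene Lcn2 (-1.75) and the transferrin receptor gene Tfrc (-2.31) fell and Hfe (2.12) and Slc11a1 (0.83) rose. Of 15 enzymes of inflammation (53.3% called), 4 rose and 4 fell. Arg2 (-2.44), Alox5 (-1.99) and Nos2 (-1.62) fell and Cybb and the cyclooxygenase gene Ptgs2 (1.23) rose. The 13 complement genes, of which 2 rose and 2 fell (30.8%), had Cfb, factor B, at 8.39, 8.85 and 9.08 in the G-CSF arrays and 6.43, 6.61 and 6.71 in the PBS arrays, as the leading rise (2.19) and Cd55, an inhibitor of complement, as the leading fall (-1.35). Of 13 genes of sterol synthesis 38.5% were called, with 1 rise, Insig1 (1.15), and 4 falls, led by Fdps (-0.97).

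The study set out genes in panels, and that of neutrophil and monocyte genes was taken from earlier work. The panel that it shows with the G-CSF samples holds 12 genes picked by limma for separating DT-Ly6C+ from PBS-Ly6C+ cells. It was chosen with arrays of this series and is not independent of them. The choice was for a difference from PBS cells, and the G-CSF and DT arrays correlated at 0.980 to 0.986, which favors calls here. Of these 12 genes 11 rose (91.7%, against 8.28% of all genes) and Kit fell. Cyp2ab1, a cytochrome P450 gene, had 7.39, 7.97 and 7.36 in the G-CSF arrays and 4.65, 4.47 and 4.34 in the PBS arrays (3.09) and Tppp3, a tubulin-binding protein, 10.20, 9.92 and 9.92 in the G-CSF arrays and 6.96, 7.26 and 7.10 in the PBS arrays (2.90), and the others were Plekhg1 (2.71), Rras (2.68), Smpdl3b (2.45), Tspan17 (1.90), Pltp (1.80), Ceacam1 (1.78), Naip2 (1.66), Arhgef10l (1.55) and Ace. Against the G32 PBS array 0 of the 12 were called higher and 0 lower, with a median of 0.13. Of 9 genes of the panel of neutrophil and monocyte genes 55.6% were called, against 17.8% of all genes. Csf1r and Cd68 (1.06) rose, Egr1, Csf3r and Gfi1 fell, and Cebpa, Arg1 (-0.05), Jun (-0.33) and Egr2 (-0.36) did not pass. Of other surface proteins that the study names, Gpr35 had 9.38, 9.82 and 9.73 in the G-CSF arrays and 7.64, 7.94 and 8.19 in the PBS arrays and rose by 1.72 (adjusted p = 0.000171), Itgb7 had 9.75, 9.53 and 9.63 in the G-CSF arrays and 7.49, 7.74 and 7.32 in the PBS arrays, and Cd33 had 9.70, 9.86 and 9.31 in the G-CSF arrays and 10.91, 10.82 and 11.19 in the PBS arrays and was lower by 2.54-fold (adjusted p = 0.000708). Gpr35, Itgb7 and Cd33 turned in sign against the G32 PBS array, with only small differences for Gpr35 and Itgb7.

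Of the named genes with calls close to the threshold, several were lost when a single array was left out. Tollip lost its call without any 1 of the 6 arrays (adjusted p up to 0.0699), and Ctsd and Mrc1 without any of 5 (up to 0.104 and 0.138). Abca1, Csf2ra, Fabp5, Fcnb and Vcam1 lost theirs without any of 4 arrays (up to 0.0734, 0.0974, 0.114, 0.134 and 0.0584). Mmp8 lost its call without any PBS array (up to 0.107), Fdps without the second G-CSF or the first PBS array (up to 0.0573), Tlr4 without the first PBS array (0.0676) and Fpr2 without the third (0.0525). The highest values for Socs3, Itgax, Cebpe and Gfi1 were 0.134, 0.143, 0.103 and 0.064. In the other direction, Flt3 passed without the third G-CSF array (adjusted p = 0.00941).

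Set against the G32 PBS array, few of these differences remained. Of the 3955 genes called against the 3 PBS arrays, 60 were called against the G32 PBS array, 33 of them in the same direction (27 higher and 6 lower) and 27 in the opposite one. In 3407 of the 3955 (86.1%) the G32 PBS array lay nearer to the mean of the G-CSF arrays than to that of the PBS arrays of the JS set. These genes were chosen for a difference from the PBS arrays of the JS set, which favors such a share. The share over all genes was not counted. Of 42 gene lists, including that of 4 sex-linked genes with no call, 12 had any member called against it and none had more than 2, and the list medians lay between -0.32 and 0.70 where they lay between -2.46 and 2.17 against the PBS arrays of the JS set. The genes higher against both included Lifr, Cfb (1.38 against the G32 array, adjusted p = 0.029), Cmklr1 and Shtn1, an actin-linked protein known from neurons (2.28, and 1.80 against the G32 array, adjusted p = 0.0263). Jchain, the joining chain of secreted immunoglobulin, was lower against both (-1.82, and -2.82 against the G32 array, adjusted p = 0.048). The opposite directions included Cd81, a tetraspanin, which was -1.49 against the PBS arrays of the JS set and 1.65 against the G32 array (adjusted p = 0.000235 and 0.0134).

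The comparison with DT-Ly6C+ monocytes of the same array set asks where G-CSF-Ly6C+ cells differed from the cells found after the loss of CD11c+ cells, and in it the PBS arrays cancel. The DT cells came from CD11c.DTR mice 48 h after an injection of DT and were sorted like the PBS cells, so strain, transgene, schedule and gate cannot be told apart from the treatment here either. In the limma fit of the 9 JS arrays 8 of 22180 genes passed (0.0361%), 4 higher (0.018%) and 4 lower (0.018%) in G-CSF-Ly6C+ cells, and 1801 genes had an unadjusted p under 0.05. With only the 6 G-CSF and DT arrays in the fit 3 genes passed, and after a filter on dim genes 21. The G-CSF and DT arrays correlated at 0.980 to 0.986. Both comparisons share the PBS arrays, and side by side the G-CSF and DT differences from them were 5.70 and 5.89 for Thbs1, 4.34 and 4.46 for Ms4a4c, -6.19 and -5.74 for Steap4 and -5.85 and -5.66 for Prok2.

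Jchain was the largest of these differences, at 4.12, 4.47 and 4.97 in the G-CSF arrays and 7.68, 7.84 and 7.28 in the DT arrays (-3.08, SE 0.22, adjusted p = 0.000485). Camp, the cathelicidin of specific granules, had 8.74, 8.72 and 8.65 against 10.40, 10.05 and 10.26 (-1.53, adjusted p = 0.00199), Ltf 8.0, 7.82 and 8.40 against 9.22, 9.10 and 9.46 (-1.19, adjusted p = 0.0411), and Cd36, a scavenger receptor of lipids, 6.50, 7.06 and 7.25 against 8.67, 8.58 and 8.30 (-1.58, adjusted p = 0.0311). All of these were lower after G-CSF. Higher after G-CSF were C1qb, at 9.29, 9.29 and 9.90 against 7.88, 7.68 and 7.63 (1.77, adjusted p = 0.00568), Nt5dc2, at 7.76, 7.59 and 7.28 against 5.46, 6.42 and 5.73 (1.67, adjusted p = 0.0383), Shtn1, at 9.37, 9.52 and 8.74 against 7.75, 7.94 and 7.76 (1.39, adjusted p = 0.0411), and Cd81, at 8.03, 8.21 and 8.61 against 7.24, 7.05 and 7.11 (1.15, adjusted p = 0.0383). Jchain is a gene of plasma cells, whose list mean was 6.09 to 6.37 in the G-CSF arrays and 6.74 to 6.96 in the DT arrays, and C1qb is a gene of macrophages, whose list mean was 6.97 to 7.44 and 6.57 to 6.69. Camp and Ltf are genes of neutrophil granules, and the list means were 7.78 to 7.90 and 8.0 to 8.16 for neutrophil markers and 8.73 to 8.89 and 9.07 to 9.21 for secondary and tertiary granule genes. Each of these lists holds the called genes set beside it, and no mean without them was taken. The list means therefore cannot show whether the other members moved with these genes. The part of these cell types was not tested. The count depended on the third G-CSF array, since 59 genes passed without it and 2 to 4 passed when any other of the G-CSF or DT arrays was left out.

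**Figure D5:**
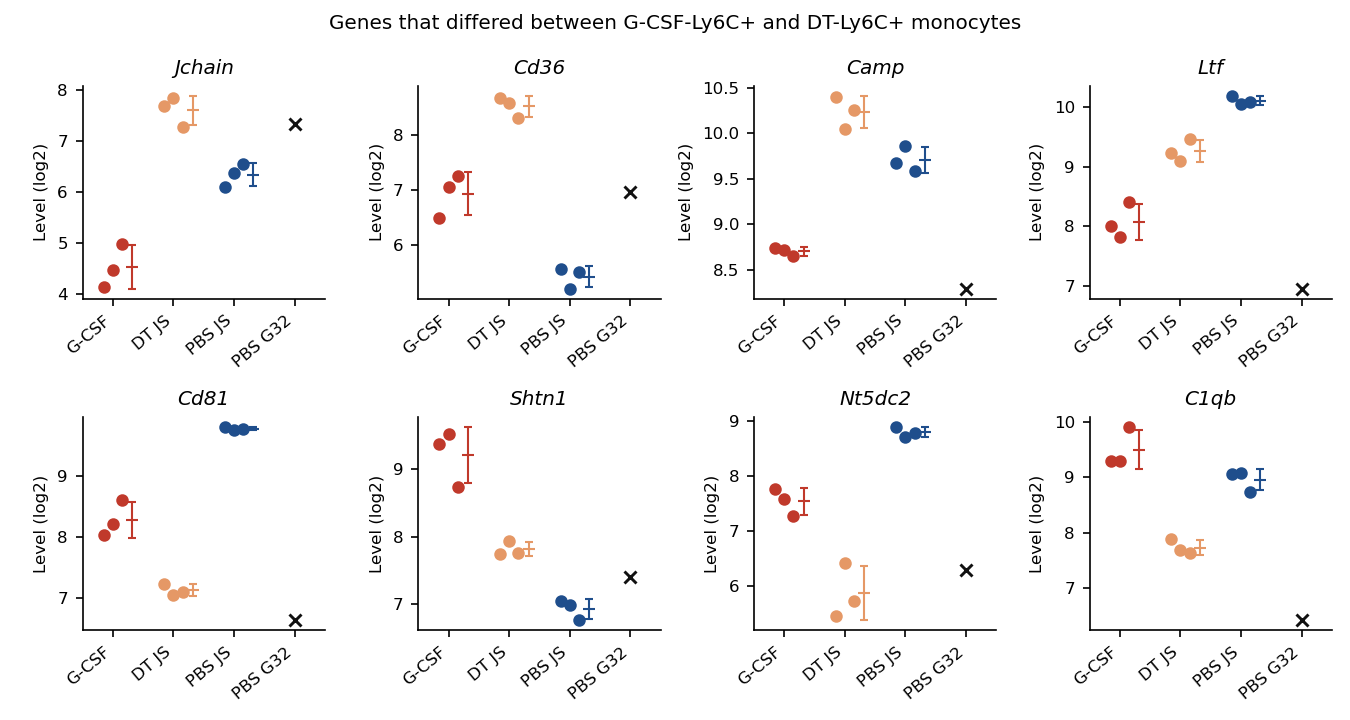
Levels (vertical axis, log2) of the 8 genes that passed between G-CSF-Ly6C+ and DT-Ly6C+ monocytes, with a point for each of the 3 arrays of a group, the mean and SD beside them and the G32 PBS array as a cross. The genes were chosen by their call, and the G-CSF and DT points do not overlap in any panel.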

How the data were processed

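Spleen monocytes were sorted by flow cytometry, and their RNA was hybridized to MoGene 2.0 ST arrays. The authors normalized the arrays by RMA with oligo (version not given in the sources used here), and the deposited values are log2 intensities for 41345 probe sets. The ComBat step by which the methods joined these arrays with Immgen arrays came after RMA, and whether the deposited values hold it is not stated. Probe sets with a single gene symbol in the platform annotation were kept, and the one with the highest mean stood for each of 22180 genes. No filter on dim genes was set. Groups came from the array titles. Differences were fitted with limma 3.58.1 in R 4.3.3 (lmFit, eBayes, Benjamini-Hochberg, threshold 0.05), on the 6 arrays for G-CSF minus PBS, on the 9 JS arrays for G-CSF minus DT and on the whole set of 17 arrays, split by group and array set, for the G32 PBS array. The number of arrays limits the precision. The method was tested on simulated data in which 100 genes differed by 1 and 100 by 2 on the log2 scale. It called 62 and 92 of them, with 5 false calls. Genes that did not pass may therefore still differ.

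Members and gene lists were chosen with earlier results of these data known. Named genes were Thbs1, Ms4a4c, Steap4 and Prok2, the 15 largest rises and 15 largest falls among called genes without overlap, up to 3 called genes in each direction of each list, the genes of the study's panels and of the sort, and up to 5 in each direction for G-CSF minus DT. Members that did not pass were added to describe the lists, as were Mmp8, Elane, Prtn3, Cdc20, Gbp3, Slfn8 and Ifit1 for their promoters. Of 660 list genes 608 were measured, and the others were not analysed here. Promoters were taken from RefSeq (GRCm38.p6) and searched over 250 bases before the start. The alternatives changed the arrays in the fit, the PBS arrays, the filter, the choice of probe set, the normalization, the weights, the variance model and the replicate block, and left out each array in turn.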

Additional observations from a re-analysis of the deposited data

Results flagged for a closer look

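The PBS-Ly6C+ array of the G32 set is outside the main comparison, and it carried the genes that mark it at the levels of the G-CSF arrays. It stood at 11.98 for Thbs1, 10.53 for Ms4a4c, 5.24 for Steap4 and 5.45 for Prok2. In each of them it was more than 3 units away from every PBS array of the JS set, and these arrays share a label. It is a single array of another set, and the cause of the gap was not tested.

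A second group of values drew attention because the effects of G-CSF and of DT, both against the same PBS arrays, differed by a test of the difference itself (limma, 9 arrays). These were Jchain (-3.08), Cd36 (-1.58), Camp (-1.53) and Ltf (-1.19), which were lower after G-CSF than after DT, and C1qb (1.77), Nt5dc2 (1.67), Shtn1 (1.39) and Cd81 (1.15), which were higher. None of these 8 overlapped between the 3 G-CSF and the 3 DT arrays, which follows largely from their choice by call. The share of all genes without such an overlap was not counted. No group of the comparison held 4 or more arrays, so single arrays were not tested against the others of their group.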

How the results depend on the processing

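Against 3955 genes called between G-CSF and PBS, the alternatives that kept the 3 PBS arrays called from 2772 (all 4 PBS arrays with a term for the array set) to 4546 (trended and robust empirical Bayes), and the counts when 1 of the 6 arrays was left out ran from 3000 to 3339. With all 4 PBS arrays 1379 genes fell in place of 2119. With the G32 PBS array in place of the other 3, 194 genes were called, 109 higher and 85 lower, and 137 of them differed by at least 1, and the cause was not tested. Between G-CSF and DT, 8 genes were called, 3 in a fit of those 6 arrays alone and 21 after a filter on dim genes, and 2 to 59 when an array was left out. The numbers in the array names did not pair the arrays, since same-numbered arrays deviated together by r of 0.0172, 0.000123 and 0.0261. With the number as a replicate block 3548 genes were called between G-CSF and PBS, 1569 higher, and 6 between G-CSF and DT, and 4 of the 212 genes named lost their calls.

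Of the 212 genes named, 209 kept their direction and their side of the threshold in the fit of 9 arrays, 194 in that of all 17 and 172 with all 4 PBS arrays, where 35 lost their calls. Against the G32 PBS array 27 did, 66 lost the call and 119 turned in sign. For granule, neutrophil and progenitor genes these were Arg1 0.18, Camp 0.42, Cd93 -0.43, Cebpe 0.63, Chil1 0.63, Ctsg 0.86, Cxcr2 2.02, Cybb -0.48, Elane 0.79, Hp 0.17, Lcn2 1.42, Ltf 1.12, Ly6g 2.19, Mmp8 0.11, Mmp9 0.98, Mpo 0.29, Mrgpra2a 0.62, Ms4a3 0.52, Prtn3 0.32 and Retnlg 3.80. For genes of the cell cycle and ribosome biogenesis these were Cdc20 0.20, Cdk1 0.25, E2f1 0.40, Mcm6 0.56, Myc 0.78, Rrm1 0.47, Top2a 0.11, Ttk 0.19 and Uhrf1 0.67. For markers of other cells these were C1qa 0.86, C1qc 0.64, Cd24a 0.87, Cd3g 0.19, Cd5l 0.03, Cd7 0.26, Cpa3 0.05, Irf4 -0.20, Irf8 -0.20, Itgax 1.46, Ms4a1 0.20, Ms4a2 0.15, Nkg7 0.16, Pf4 0.25, Siglech 0.17, Slc40a1 2.47 and Vcam1 1.15. For monocyte markers these were Ccr2 -0.09, Cd14 -0.71, Cd36 -0.03, Cd68 -0.15, Clec4a1 -0.11, Csf1r -0.09, Cx3cr1 -0.44, Emb -0.04, Fn1 -0.26, Ly6c2 -0.07 and Nr4a1 -0.58. For transcription factors and genes of signaling and interferon these were Cd180 -0.28, Cebpa -0.23, Cebpd 0.03, Egr1 0.63, Egr2 0.20, Fos -0.02, Ifit1 0.0, Ifit3 -0.02, Il4ra 0.58, Il6ra -0.16, Il6st -0.16, Jak1 0.13, Klf4 -0.98, Mx2 -0.08, Nr4a2 -1.10, Rsad2 -0.09, Slfn8 -0.72, Socs3 0.37, Spi1 -0.15, Stat3 -0.15, Stat5a 0.12, Tlr2 -0.35, Tlr4 0.74 and Tollip 0.07. For genes of lipids, lysosomes, MHC class II and complement these were Abca1 0.48, Abca9 -0.10, Ctsd 0.83, Ctsh -0.21, Ctss -0.31, Fabp5 0.09, Fdps 0.12, H2-Aa -0.19, H2-Eb1 0.14 and Insig1 -0.51. For other genes these were Alox5 0.87, Arg2 0.27, Ccr1 0.79, Cd33 0.65, Cd81 1.65, Ceacam1 -0.19, Clec4a3 -0.14, Clec5a 1.12, Fcer1g -0.07, Fcgr4 1.71, Fpr2 0.74, Gpr35 -0.06, Hpse -0.28, Il1f9 1.30, Il6 -0.27, Itga1 -0.06, Itgb7 -0.01, Mrc1 0.03, Ms4a4a -0.40, Nt5dc2 1.24, Pld4 -0.10, Ptgs2 -0.45, Saa3 0.89, Stfa1 0.77, Stfa3 1.13, Thbs1 -0.31, Tnf 0.07 and Tspan17 -0.01. Differences close to 0 that had not passed changed sign in other settings as well. With all 4 PBS arrays C1qc gave 0.01, E2f1 0.01, Hp 0.03 and Ifit1 -0.02. After quantile normalization E2f1 gave 0.06, Spi1 -0.11 and Stat5a 0.02, and with array weights Hp gave 0.01 and Ifit1 -0.03. Over the fits with 1 array left out the ranges were Arg1 -0.14 to 0.05, C1qc -0.40 to 0.00, E2f1 -0.24 to 0.08, H2-Aa -0.10 to 0.46, H2-Ab1 -0.05 to 0.40, H2-Eb1 -0.63 to 0.07, Hp -0.09 to 0.08, Ifit1 -0.14 to 0.17 and Stat5a -0.18 to 0.06.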
